A study of Mus musculus with 43 samples.

Results

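*Mars* and *Eprs*, which encode aminoacyl-tRNA synthetases of the cytosol, and *Mars2* and *Ears2*, which encode synthetases of the mitochondrial matrix, were the 4 synthetase genes among 2078 metabolic genes targeted in an in vivo CRISPR screen of CD8+ T cells. They were taken from the library by symbol, as every targeted gene whose symbol was a single letter followed by ars, ars1 or ars2, or was *Farsa*, *Farsb*, *Eprs* or *Eprs1*. Symbols that ended in 2 made the mitochondrial class and the others the cytosolic class, which gave 2 genes each. Every gene was targeted by 5 sgRNAs, so the 4 genes held 20 of the 10640 sgRNAs of the library, of which 250 were nontargeting controls. *Mars* is listed as *Mars1* in the RefSeq gene table. The sgRNAs were identified by number, and their target sequences were not analysed here.

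All libraries came from CD8+ OT-I T cells, which carry a T cell receptor against ovalbumin, with a Cas9 knock-in and the lentiviral sgRNA library, which carries CD90.1 as its marker. The cells were transferred into Cas9 mice with orthotopic KPC_OVA tumours, grown from mouse PDAC cells engineered to make ovalbumin, and treated from that day with anti-PD-1 or control IgG. An aliquot kept on day 0 of transfer, called T0, was compared with CD90.1+ cells sorted on day 7 from primary tumour, lungs, liver, peritoneal metastases, spleen, and tumour-draining and nondraining lymph nodes under each treatment. Of 43 samples, 41 had values, so that liver anti-PD-1 had 1 library, both liver and peritoneal metastases had 2 under IgG, and T0 and the remaining groups had 3.

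Aminoacyl-tRNA synthetases attach each amino acid to its tRNA and so supply every ribosome with its substrates. Cytosolic translation and translation inside mitochondria use separate tRNAs, and for most amino acids separate nuclear genes encode the enzyme of each compartment. The mitochondrial enzymes serve only the few proteins encoded by mitochondrial DNA, which are subunits of the respiratory chain and the ATP synthase. *Mars* and *Mars2* encode the methionyl-tRNA synthetases of cytosol and mitochondria. *Eprs* encodes a bifunctional enzyme that charges glutamyl- and prolyl-tRNA in the cytosol, and *Ears2* encodes the mitochondrial glutamyl-tRNA synthetase.

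The deposited signal of an sgRNA is its read count after the authors' normalization to the nontargeting sgRNAs and batch correction. The level of a gene was the mean of log2(signal + 1) over its 5 sgRNAs minus the nontargeting median of the same library, and a change was the difference in this level from T0. Values are thus log2 units relative to the nontargeting controls. The sgRNA share in DNA cannot tell apart cells that died, divided less or entered an organ less often, and cutting at the target genes was not measured. Summed signal was 2882462 to 4228882 in T0, 1788300 to 3590597 in the 26 libraries of primary tumour, lungs, liver, peritoneal metastases and spleen, and 2690302 to 4130054 in 12 libraries from lymph nodes. The lymph node libraries stood apart, since 45.4% to 91.6% of all sgRNAs were at their lowest value there, against 2.78% to 42.6% in the other organs and at most 0.0188% in T0. An sgRNA was counted at its lowest value where at least 2 libraries of a replicate number shared the minimum to a relative tolerance of 1e-09. Replicate 2 of peritoneal metastases anti-PD-1 has spleen as its tissue label, and leaving it out changed none of the synthetase calls.

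The synthetase genes were well represented at transfer, although single sgRNAs were low. T0 levels were 0.40 ± 0.55 for *Mars*, -0.05 ± 0.42 for *Eprs*, 0.20 ± 0.29 for *Mars2* and 0.28 ± 0.50 for *Ears2* (SD, n = 3). Among all genes these levels were at percentiles 72.9, 21.5, 49.2 and 57.9. The mean T0 signal of the 20 sgRNAs had a median of 274, with 86.1 the lowest and 835 the highest. Medians were 269 for nontargeting and 295 for gene-targeting sgRNAs. The lowest of the 20, s_05466 of *Ears2*, was at percentile 0.282 of all sgRNAs, and s_07482 of *Eprs* at 2.61. At the gene level, none of the 4 stood at an extreme of the library before transfer.

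On day 7, sgRNAs of all 4 genes were depleted from T cells of primary tumour, lungs, liver, peritoneal metastases and spleen. Over the 10 groups of these organs the mean change was -5.58 for *Mars*, -4.70 for *Eprs*, -5.49 for *Mars2* and -5.57 for *Ears2*. Each of the 4 genes was below every T0 library in 26 of 26 libraries. The same share was not counted over all genes. For single sgRNAs, 63.2% of gene-targeting and 55.3% of nontargeting pairs with these libraries were below every T0 library. Those pairs compare signal that was not centred, so they are not the same measure as the gene levels. The nontargeting median signal itself had a median of 295 over the T0 libraries and 185 over these libraries. In limma, with Benjamini-Hochberg adjustment over 2078 genes within each group, *Mars*, *Mars2* and *Ears2* were depleted in 10 of 10 groups and *Eprs* in 9. Together, 19 of 20 combinations of gene and group passed in the cytosolic class and 20 of 20 in the mitochondrial class. A filter left out gene-targeting sgRNAs among the lowest 10% of all sgRNAs by mean signal over all 41 libraries. It kept 1 sgRNA each of *Ears2*, *Eprs* and *Mars2* and 2 of *Mars*, and 8 and 10 combinations passed. That mean includes the day 7 libraries, so sgRNAs were removed for being depleted. The calls lost with the filter therefore do not show how firm the calls are. The comparisons with T0 share the 3 T0 libraries and are not independent of each other.

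Over all genes, the share depleted at the same threshold was 11.5% in primary tumour IgG and 11.9% in primary tumour anti-PD-1, 18% and 16.6% in lungs, 10.8% and 6.16% in liver, 11.2% and 13% in peritoneal metastases, and 12.2% and 12.8% in spleen, each with IgG first. The median change of all genes in these groups ran from -1.42 to -0.20, and the median of the 4 synthetases from -6.17 to -4.48. Ordered from the strongest depletion, *Mars* ranked 16 to 147 of 2078 genes across the groups, *Mars2* 15 to 151, *Ears2* 18 to 89 and *Eprs* 40 to 229.

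*Mars*, the cytosolic methionyl-tRNA synthetase, was at 0.18, 0.00 and 1.03 in the T0 libraries. In primary tumour its level was -4.70, -5.71 and -6.74 under IgG and -4.78, -5.43 and -5.59 under anti-PD-1. No tumour library came near T0, and the changes were -6.12 (SE 1.03, limma adjusted p = 1.01e-05) and -5.67 (SE 1.03, limma adjusted p = 2.8e-05). In lungs, levels were -6.85, -6.25 and -5.09 under IgG and -5.58, -6.30 and -3.85 under anti-PD-1. Liver gave -3.92 and -6.04 under IgG and -5.15 under anti-PD-1. Peritoneal metastases held the tightest and one of the widest groups of this gene, since anti-PD-1 libraries were at -4.09, -4.22 and -4.31 and IgG libraries at -4.45 and -7.32. Spleen IgG spread more widely still, at -7.08, -3.65 and -2.05, while spleen anti-PD-1 was at -5.11, -5.11 and -4.87. In the libraries at -7.32, -7.08 and -6.85 all 5 *Mars* sgRNAs were at their lowest value, so these levels could go no lower. The change from T0 was smallest in peritoneal metastases anti-PD-1, at -4.61 (SE 1.03, limma adjusted p = 0.000504), and largest in lungs IgG, at -6.47 (SE 1.03, limma adjusted p = 1.53e-06).

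*Eprs*, the glutamyl-prolyl-tRNA synthetase, showed the smallest mean depletion of the 4 genes and the largest range between groups. Its T0 levels were -0.47, -0.06 and 0.38. In primary tumour it was at -3.91, -6.01 and -5.06 under IgG and at -4.17, -4.59 and -4.68 under anti-PD-1, which were changes of -4.94 (SE 0.973, limma adjusted p = 0.000117) and -4.43 (SE 0.973, limma adjusted p = 0.000466). Lungs libraries were at -5.82, -5.88 and -4.08 under IgG and -5.26, -7.21 and -6.82 under anti-PD-1. The change in lungs anti-PD-1, -6.38 (SE 0.973, limma adjusted p = 6.41e-07), was the largest of this gene. Peritoneal metastases gave -7.36 and -4.90 under IgG and -5.69, -5.43 and -4.71 under anti-PD-1. In the libraries at -7.36 and -7.21 all 5 *Eprs* sgRNAs were at their lowest value, so these levels could go no lower. Spleen was the least depleted organ for *Eprs*, with levels of -2.01, -2.69 and -4.98 under IgG and -5.85, -2.68 and -2.50 under anti-PD-1. In both spleen groups 2 libraries thus lay between -2.69 and -2.01 and the third lower, and the changes were -3.18 (limma adjusted p = 0.0179) and -3.63 (limma adjusted p = 0.00493). These calls rested on single libraries. Without spleen IgG replicate 3 the change was -2.30 (limma adjusted p = 0.257), without T0 replicate 2 or 3 the spleen IgG adjusted p was 0.0558 or 0.0914, and without spleen anti-PD-1 replicate 1 that change was -2.54 (limma adjusted p = 0.13). Both were also lost with the median of the sgRNAs, at limma adjusted p of 0.133 and 0.0806. The only group in which *Eprs* missed the threshold was liver anti-PD-1, where its 1 library was at -3.01, a change of -2.96 (SE 1.38, limma adjusted p = 0.326). A fit of only T0 and that group, in which the single library adds no spread and all of it comes from the 3 T0 libraries, called it (limma adjusted p = 0.000109), along with 816 genes depleted in place of 128. Liver IgG libraries were at -4.16 and -5.93.

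*Mars2*, the mitochondrial methionyl-tRNA synthetase, had T0 levels of -0.0037, 0.08 and 0.53. Its tumour levels were -5.15, -4.51 and -5.21 under IgG and -5.84, -4.90 and -4.20 under anti-PD-1, which were changes of -5.16 (SE 0.942, limma adjusted p = 3.76e-05) and -5.18 (SE 0.942, limma adjusted p = 2.93e-05). The treatments were almost level in the tumour. In lungs, *Mars2* was at -5.52, -6.01 and -3.52 under IgG and at -6.19, -6.06 and -5.86 under anti-PD-1. Liver libraries were at -4.53 and -6.68 under IgG and -5.58 under anti-PD-1. The deepest single value of the 4 genes was that of *Mars2* in peritoneal metastases anti-PD-1. Libraries of that group were at -7.50, -5.77 and -3.63, beside -5.61 and -4.41 under IgG. In the library at -7.50 all 5 sgRNAs were at their lowest value, so the level could go no lower. That library had a nontargeting median signal of 261, the highest outside T0, and centring on it lowers the level. Spleen IgG was the least depleted group, at -3.92, -5.49 and -2.88, and spleen anti-PD-1 among the most depleted, at -4.90, -6.19 and -6.79. These were changes of -4.30 (SE 0.942, limma adjusted p = 0.000461) and -6.17 (SE 0.942, limma adjusted p = 1.52e-06), and the libraries of the treatments overlapped. With the median in place of the mean of the sgRNAs, the spleen IgG change was -3.89 and its call was lost (limma adjusted p = 0.0759).

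*Ears2*, the mitochondrial glutamyl-tRNA synthetase, was the most even of the 4 genes across groups, with changes from -6.19 to -5.12. Its T0 levels were 0.10, -0.11 and 0.85. In primary tumour they were -5.21, -4.81 and -4.48 under IgG and -5.45, -5.37 and -4.76 under anti-PD-1, changes of -5.12 (SE 0.955, limma adjusted p = 5.37e-05) and -5.47 (SE 0.955, limma adjusted p = 1.53e-05). Lungs were at -5.44, -7.36 and -4.80 under IgG and -5.80, -4.95 and -6.74 under anti-PD-1. In the library at -7.36 all 5 *Ears2* sgRNAs were at their lowest value, so the level could go no lower. The liver libraries were farthest apart, at -3.13 and -6.75 under IgG and -5.91 under anti-PD-1. Peritoneal metastases stood at -4.64 and -5.33 under IgG and -6.52, -5.36 and -4.19 under anti-PD-1, and spleen at -6.02, -5.28 and -3.96 under IgG and -5.66, -6.21 and -2.83 under anti-PD-1. Even the highest of these values was well below the lowest T0 library.

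Liver IgG replicate 3 carried the lower value for all 4 genes. Without it, the change in liver IgG was -3.41 for *Ears2* (limma adjusted p = 0.139), -4.11 for *Eprs* (limma adjusted p = 0.0652) and -4.32 for *Mars* (limma adjusted p = 0.0659), so these 3 calls were lost, while *Mars2* kept its call. In liver anti-PD-1, where 1 library stood for the group and its spread was taken from the other groups, the changes were -5.55 for *Mars* (limma adjusted p = 0.00989), -5.78 for *Mars2* (limma adjusted p = 0.00344) and -6.19 for *Ears2* (limma adjusted p = 0.00212). The *Mars* call there was lost with the median of the sgRNAs (limma adjusted p = 0.129).

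Cytosolic and mitochondrial enzymes for the same amino acid were set side by side. For methionine, the change of *Mars* minus that of *Mars2* ran from -1.25 in lungs IgG to 1.23 in peritoneal metastases anti-PD-1, and *Mars* was the lower gene in 5 of 10 groups and in 12 of 26 libraries. Lungs IgG was the only 1 of the 10 groups in which *Mars* was lower in 3 of 3 libraries (difference -1.25 ± 0.70, SD, n = 3). For glutamate, *Eprs* minus *Ears2* ran from -0.82 to 3.23, and the bifunctional *Eprs* was the lower gene in 2 of 10 groups and in 8 of 26 libraries. The widest gap was that of the single liver anti-PD-1 library. In primary tumour anti-PD-1, *Eprs* was the less depleted gene in 3 of 3 libraries, by 1.04 ± 0.61 (SD, n = 3), and in spleen anti-PD-1 by 1.56 ± 2.02 (SD, n = 3). Of 130 sgRNA-library pairs per gene in these groups, 69 were at their lowest value for *Mars*, 66 for *Mars2*, 58 for *Eprs* and 67 for *Ears2*. The differences are therefore bounded by T0 levels and lowest values. The difference between the classes was not tested.

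Single sgRNAs showed how the loss varied within a gene. All 20 synthetase sgRNAs had a mean change below 0 over the 10 groups, with a median of -5.47, beside -0.33 for nontargeting and -0.57 for gene-targeting sgRNAs. With log2(signal + 10) the synthetase median was -3.45, so the size of these changes depends on the pseudocount. In signal that was not centred, 514 of 520 pairs of a synthetase sgRNA and a library (98.8%) were below every T0 library. The same held for 55.3% of nontargeting and 63.2% of gene-targeting pairs. At their lowest value were 260 of the 520 pairs (50.0%), against 7.09% and 11.5%. A signal at its lowest value can fall no further, so the mean change of an sgRNA also depends on its T0 signal. The spread between sgRNAs of a gene carries the same limit. sgRNAs of a gene share their target and are not replicates of a condition.

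The *Mars2* sgRNAs were the most alike, with mean changes from -5.87 to -4.94 (SD 0.439, 5 sgRNAs), and 130 of 130 sgRNA-library pairs were below T0. *Ears2* ranged from -6.50 to -4.99 (SD 0.608). The mildest was s_05466, which began low and was at its lowest value in 22 of 26 libraries, so its change could hardly be larger. The *Ears2* sgRNA s_05470 began at percentile 97.4 of all sgRNAs, with T0 signals of 823, 798 and 884. Its median in the 26 libraries was 25.6. The single pair above every T0 library was s_05469 of *Ears2*, at 304 in spleen anti-PD-1 replicate 3, against T0 signals of 283, 234 and 230. The mitochondrial genes thus held 1 exception among 260 pairs.

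*Mars* had the widest spread between sgRNAs, from -7.07 to -3.62 (SD 1.45). Its sgRNA s_08388, the most depleted of the 20, had T0 signals of 651, 748 and 450 and was at its lowest value in 18 of 26 libraries, with a median of 0.562. s_08389, at T0 signals of 437, 239 and 321, kept a median of 23.4, reached 342 in lungs anti-PD-1 replicate 3 and was below every T0 library in 23 of 26. s_08387 was below in 24 of 26, and the other 3 *Mars* sgRNAs in 26 of 26, so 125 of 130 *Mars* pairs were below T0. *Eprs* ranged from -5.54 to -2.93 (SD 1.06), and the least depleted of all 20 sgRNAs was its s_07483, with T0 signals of 197, 246 and 209 and a median of 31.7 in the 26 libraries. That sgRNA was at its lowest value in 5 libraries, whereas s_07482 and s_07485 of the same gene were there in 16 each. Even so, 130 of 130 *Eprs* pairs lay below T0.

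Anti-PD-1 did not detectably alter the depletion of the synthetase sgRNAs. Over primary tumour, lungs, liver, peritoneal metastases and spleen, the mean level under anti-PD-1 minus that under IgG was 0.40 for *Mars* (95% confidence interval -0.65 to 1.45), 0.36 for *Eprs* (-0.64 to 1.35), -0.70 for *Mars2* (-1.67 to 0.26) and -0.30 for *Ears2* (-1.27 to 0.68). In limma 0 of the 4 genes passed, each at an adjusted p of 0.9997, and 0 had an unadjusted p under 0.05, compared with 67 of 2078 genes. Over all genes, 0.0962% passed the threshold. The intervals reach past 1 log2 unit in a single direction for each gene, so a shift of that size in that direction was not excluded. They take the libraries as independent, and would be too narrow if organs of a treatment are tied. With 1 library left out, the difference ran from 0.12 to 0.69 for *Mars* (without peritoneal metastases IgG replicate 3 or 2) and from 0.11 to 0.60 for *Eprs* (without replicate 2 or 3 of that group). Without the lowest 10% of sgRNAs it was 1.95 for *Eprs* and -1.77 for *Mars2*, and neither passed. By organ, the levels of the treatments overlapped for each gene in primary tumour, lungs and spleen. Without overlap were only *Mars* in peritoneal metastases, where anti-PD-1 was higher by 1.68, and *Eprs* in liver, where the single anti-PD-1 library was higher by 2.04. Peritoneal metastases had 2 IgG and 3 anti-PD-1 libraries, and liver had 2 under IgG. The share of all genes without overlap in these groups was not counted, so neither case was read as an effect of treatment.

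Between the 5 organs, 0 of the 4 genes passed a moderated F-test in limma, at which 0.241% of all genes passed. At an unadjusted p under 0.05 were 102 genes, 1 of them a synthetase. That gene was *Eprs* (limma F = 4.05, unadjusted p = 0.00621, adjusted p = 0.561). Its mean changes were -5.80 in lungs, -5.65 in peritoneal metastases, -4.68 in primary tumour, -3.98 in liver and -3.40 in spleen. For the other 3 genes the adjusted p was 0.9998, and the organ means lay between -6.06 and -5.05 for *Mars*, -5.79 and -5.17 for *Mars2* and -6.13 and -5.27 for *Ears2*. The order of organs was thus not distinguishable for these genes in the values as deposited. The paper states that batch effects between organs were removed, with settings that are not known. Yet lowest values were shared between organs within a replicate number. With all 5 sgRNAs at their lowest value, the mean *Mars* signal was 0.589 in replicate 1 of draining nodes IgG, lungs IgG and spleen IgG. What defined the batches is therefore not known. The test used the corrected values and cannot tell whether organs differed before that correction.

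In the lymph nodes the comparison with T0 could not be read in the same way. Synthetase sgRNAs were nearly absent there, with 220 of 240 sgRNA-library pairs (91.7%) at their lowest value, but so were 72.1% of nontargeting and 71.8% of gene-targeting pairs. The median signal of the nontargeting sgRNAs was 194 to 297 in T0 and at most 1.39 in the lymph node libraries, so centring on it set lost sgRNAs near 0. On that scale *Mars* changed by 1.30 and -0.03 in draining nodes under IgG and anti-PD-1 and by -0.78 and -0.75 in nondraining nodes. *Eprs* changed by -0.32 and 0.50, and by -0.30 and 1.18, in the same order. The mitochondrial *Mars2* was at -0.01, -0.73, -0.57 and 0.09, and *Ears2* at 0.66, 0.10, -0.59 and -0.63. In limma 0 of the 8 cytosolic and 0 of the 8 mitochondrial combinations were depleted, and 0 had an unadjusted p under 0.05 in that direction. Over all genes 0% were depleted in each of the 4 groups, while 35% and 28.2% passed as enriched in draining nodes and 6.74% and 8.95% in nondraining nodes, each with IgG first, and 0 synthetases did. The enriched calls over all genes fell to 1 to 24 per group with the median of the sgRNAs. All genes had a median change of 1.37 to 2.08, above that of the 4 synthetases, at -0.58 to 0.32. Without centring, 16 of these 16 combinations passed as depleted, as did 2059 to 2076 of 2078 genes.

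A few synthetase sgRNAs were abundant in single lymph node libraries. In 9 of 240 pairs (3.75%) the signal was above every T0 library, compared with 16.0% of nontargeting and 15.9% of gene-targeting pairs. The highest was s_07481 of *Eprs*, at 4093 in nondraining nodes anti-PD-1 replicate 1, against T0 signals of 288, 630 and 606. In that library the other 4 *Eprs* sgRNAs were at their lowest value. s_08389 of *Mars* reached 1138 in draining nodes IgG replicate 2, where the remaining 4 *Mars* sgRNAs were also at their lowest value. In both cases the value came from 1 sgRNA of 5. The highest gene level in the lymph nodes, 4.33 for *Mars* in draining nodes IgG replicate 3, had 2 of 5 sgRNAs at their lowest value, with s_08387 at 630 and s_08388 at 664.

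Other genes of tRNA charging and of translation were given for comparison, by lists chosen with earlier results of these data known. Of 16 further charging genes, the library held 3. *Sepsecs*, which completes the synthesis of selenocysteine on its tRNA, was depleted in 7 of the 10 groups, with changes from -5.07 in lungs IgG to -1.76 in peritoneal metastases IgG. *Pstk*, the kinase that acts just before it in the same route, had changes of -2.45 to -0.71 and passed in 0 of 10 groups, with an unadjusted p under 0.05 in 1. *Mtfmt*, which formylates the initiator methionyl-tRNA of mitochondria after *Mars2* has charged it, was at -0.94 to 0.50 and passed in 0 of 10, at unadjusted p of 0.353 or more. Both methionyl-tRNA synthetases were thus depleted in groups in which the formyltransferase that uses the mitochondrial product did not pass. In draining nodes *Mtfmt* passed as enriched under IgG, at 2.56 (limma adjusted p = 0.0431), and *Pstk* under anti-PD-1, at 3.74 (limma adjusted p = 0.0148), in groups in which 35% and 28.2% of all genes did so.

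The 20 ribosomal protein genes, which serve cytosolic translation, give a scale for these values. Their median ran from -6.53 to -5.35 over the 10 groups, and 18 or 19 of the 20 were depleted in each. The 38 complex I genes, the nuclear subunits and assembly genes of the respiratory complex that also needs subunits translated in mitochondria, had medians of -4.02 to -2.36, with 4 to 28 depleted. *Mars2* and *Ears2*, at -6.24 to -4.30 and -6.19 to -5.12, were below the complex I median in every 1 of the 10 groups. The library also held sgRNAs for the 13 protein-coding genes of mitochondrial DNA, whose products *Mars2* and *Ears2* help to translate, under symbols such as *ND1* and *COX1*. This list was added after the values were seen. Its median ran from -1.58 to 0.05 over the 10 groups, beside -1.42 to -0.20 for all genes. In limma 0 of 130 combinations of gene and group were depleted, with 5 at an unadjusted p under 0.05. Cutting of mitochondrial DNA was not measured, so these values do not show whether loss of its products was tolerated. None of these lists was tested against another.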

How the data were processed

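Genomic DNA was sequenced at the integrated sgRNA. The authors counted reads with MAGeCK, scaled the counts by the 250 nontargeting sgRNAs and removed batch effects between organs with ComBat, whose settings are not given in the sources used here. The values as deposited are a signal per sgRNA and library and are not whole counts, so no count test was run, the read depth is unknown and no counting interval is given. The authors excluded 2 samples after quality control, replicate 1 of peritoneal metastases under IgG and replicate 2 of liver under anti-PD-1.

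Groups and replicate numbers came from the sample titles, which call the samples biological replicates. For each library log2(signal + 1) was averaged per gene (5 sgRNAs) after which the nontargeting median was subtracted. limma 3.58.1 in R 4.3.3 fitted a mean for each group to 41 libraries, with 26.2 prior degrees of freedom and a prior variance of 1.55. Each of 14 groups was compared with T0, anti-PD-1 with IgG over 5 organs, and the 5 organs by a moderated F-test, with Benjamini-Hochberg adjustment over 2078 genes, a threshold of 0.05 and two-sided tests. The fit was tested on simulated data. The genes and the comparison lists were chosen with earlier results of these data known, so no list was tested. The rule for named genes covered every synthetase gene, the further charging genes, ribosomal protein genes and complex I genes. Alternatives were another pseudocount (10), the median of the sgRNAs, other centrings, a filter on the lowest 10% of sgRNAs, lymph nodes left out, only the compared groups, a replicate block, shared lowest values set to 0, all 7 organs and each library left out. sgRNA sequences and genome coordinates were not analysed here.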

Additional observations from a re-analysis of the deposited data

How the results depend on the processing

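Outside the lymph nodes, the 19 cytosolic and 20 mitochondrial calls stayed at 16 to 20 and 19 to 20 under each alternative but the filter on low sgRNAs. Without the lowest 10% of sgRNAs they were 8 and 10. Over all genes that filter left 0 to 154 calls per group in place of 128 to 375. Each library left out in turn gave 17 to 19 cytosolic and 18 to 20 mitochondrial calls outside the lymph nodes (18 of 18 without the only liver anti-PD-1 library), and 0 in the lymph nodes, between treatments and between organs. Over all genes, depleted calls with the median of the sgRNAs were 139 in place of 240 in primary tumour IgG and 160 in place of 253 in spleen IgG. Without centring they were 990 in place of 375 in lungs IgG, 541 in place of 345 in lungs anti-PD-1 and 257 in place of 128 in liver anti-PD-1. Without the lymph nodes, lungs had 794 and 567. In fits of only the groups compared, there were 487 and 442 in primary tumour (240 and 247 otherwise), 488 and 816 in liver (224 and 128) and 581 in peritoneal metastases IgG (232). The median change of synthetase sgRNAs was -3.45 with log2(signal + 10).

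In the lymph nodes, no centring gave 8 cytosolic and 8 mitochondrial calls, and centring on the nontargeting mean gave 1 mitochondrial call, *Mars2* in draining nodes anti-PD-1 (-2.85), where 26 genes were called in place of 0, beside 55 under IgG. Enriched genes there, 140 to 727 per group, were 1 to 24 with the median of the sgRNAs, 0 without centring, 1 to 19 with the nontargeting mean and 0 to 368 in fits of only the groups compared. In nondraining nodes they were 307 and 362 with centring on all sgRNAs, in place of 140 and 186, and 113 under anti-PD-1 with log2(signal + 10). With all 7 organs, 4 synthetases differed between organs in place of 0, as did 98.4% of all genes. Between the 5 organs 77 genes differed without the lymph nodes and 31 by sgRNA medians (5 otherwise), with 0 synthetases. The replicate block changed no synthetase call, with 8 genes differing between organs and *Mars2* at -0.74 for anti-PD-1 minus IgG. Deviations of libraries with the same number correlated at -0.36 to 0.27 (median -0.03), with 27 of 84 over 0.1. In 7 of 9 pairs of groups of the same treatment all 3 numbers were over 0.1, a hint from the data that a number ties organs within a treatment. This held for 0 of 7 pairs with T0 and 0 of 3 between treatments of an organ, so the numbers were not taken to pair those samples.

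Changes of sign occurred in the lymph nodes and for treatment, among changes that had not passed, and their cause was not tested. In draining nodes IgG, *Ears2* was -0.97 with the median of the sgRNAs, -6.66 without centring, -1.69 with the nontargeting mean and -2.01 with the filter. *Mars* there was -6.01 without centring and -1.04 with the nontargeting mean, *Mars2* 0.10 with log2(signal + 10) and 0.38 with shared lowest values at 0, and *Eprs* 0.055 with the latter. In draining nodes anti-PD-1, *Ears2* was -1.10, -7.09, -2.02 and -2.13 under the same 4 settings as above. *Eprs* was -0.35, -6.69 and -1.63 under the first 3 of them, and *Mars* was 0.049 with log2(signal + 10), 1.07 with the filter and 0.37 with shared lowest values at 0. In nondraining nodes anti-PD-1, the median of the sgRNAs, no centring and the nontargeting mean gave -0.15, -6.20 and -0.61 for *Eprs* and -0.36, -7.28 and -1.69 for *Mars2*. *Eprs* in nondraining nodes IgG was 0.0495 with shared lowest values at 0. For treatment, *Ears2* was 0.97 with the filter. With each library left out, ranges that crossed 0 were -0.37 to 0.59 for *Ears2*, -0.49 to 1.10 for *Eprs* and -0.52 to 0.46 for *Mars* in draining nodes anti-PD-1, -0.011 to 2.47 for *Mars* and -0.79 to 0.44 for *Mars2* in draining nodes IgG, -0.71 to 0.56 for *Mars2* in nondraining nodes anti-PD-1, and -0.66 to 0.065 for *Ears2* under treatment.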
